A study of Bos indicus and Bos indicus x Bos taurus and Bos taurus with 6 samples.

Results

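The genes described here are 9 markers of eosinophils, basophils and mast cells: ALOX15, CCR3, IL5RA, SMPD3, CEBPE, GATA2, MS4A2, FCER1A and CPA3. They were taken by symbol from the table of raw read counts, which holds 21698 genes, and all 9 were found there. The study sequenced RNA of whole blood from cows of 3 breeds, with 2 biological replicates each (n = 2 per breed, 6 libraries). Kedah-Kelantan is an indigenous tropical Bos indicus breed called heat-tolerant in the labels, Brangus is an intermediate composite of Bos indicus and Bos taurus, and Holstein Friesian, a Bos taurus dairy breed, is called heat-vulnerable. All animals were adult females, neither pregnant nor in milk, aged 4.5 ± 1.2 years and weighing 450 ± 15 kg, and blood came from the jugular vein. Every sample is labelled as taken under heat stress, with the same temperature-humidity index of 44.68. Breed is thus the only labelled difference between the groups, and the heat load of single animals is not given. The design text gives 4 animals per breed, and whether a library holds 1 animal or several is not stated. With no record of shared or separate collection days, p-values measure only the spread between these libraries.

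Eosinophils are granulocytes of type 2 immunity, known in cattle for their response to worms and ticks. Interleukin 5 drives their formation and survival through IL5RA, and eotaxin chemokines draw them into tissue through CCR3. Basophils, and the mast cells of tissues, carry the high-affinity receptor for immunoglobulin E, built from the FCER1A, MS4A2 and FCER1G chains, and release histamine and proteases when it is crosslinked. The transcription factors GATA2 and CEBPE act in the precursors of these cells.

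Total counts ranged from 25275377 to 28668857 per library, and genes with at least 1 count from 13260 to 15178. T cell, B cell, monocyte and neutrophil markers were detected in every library, as whole blood should hold. Red cell genes were mixed: the globin gene HBB had 2831 to 14770 counts per library, while SLC4A1 had at most 15 in any library. The 15 erythroid markers, mostly HBB, summed to 156 and 192 CPM (Kedah-Kelantan, replicate 1 first), 460 and 654 (Brangus) and 106 and 245 (Holstein Friesian). The 2 Holstein Friesian libraries stood apart from each other. CPM are counts scaled for depth by the TMM-adjusted library size, and 12015 genes had a mean level of 1 CPM or more. On the log2(CPM + 1) scale, 25.1% of these genes differed more than 2-fold between the Holstein Friesian libraries. The share was 4.47% for the Brangus pair and 0.183% for the Kedah-Kelantan pair. Each comparison with Holstein Friesian is therefore given below with both libraries and with either one alone.

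The main pattern was a split within a breed as well as between breeds. Holstein Friesian replicate 2 had the highest level of all 9 genes, against 29.1% of the 13455 genes tested. In 7 of the 9 genes both Kedah-Kelantan libraries and Holstein Friesian replicate 2 lay above all 3 other libraries, which was so for 18.3% of the genes tested. The 7 were ALOX15, CCR3, IL5RA, SMPD3, CEBPE, GATA2 and MS4A2, and the exceptions were FCER1A and CPA3. Summed over the 9 genes, the level was 479.2 and 499.5 CPM (Kedah-Kelantan), 46.9 and 42.9 (Brangus) and 42.1 and 1420 (Holstein Friesian). Replicate 1 stands first here and in all pairs of values below. In bulk blood, fewer cells of a type and less RNA per cell cannot be told apart.

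**Figure D1:**
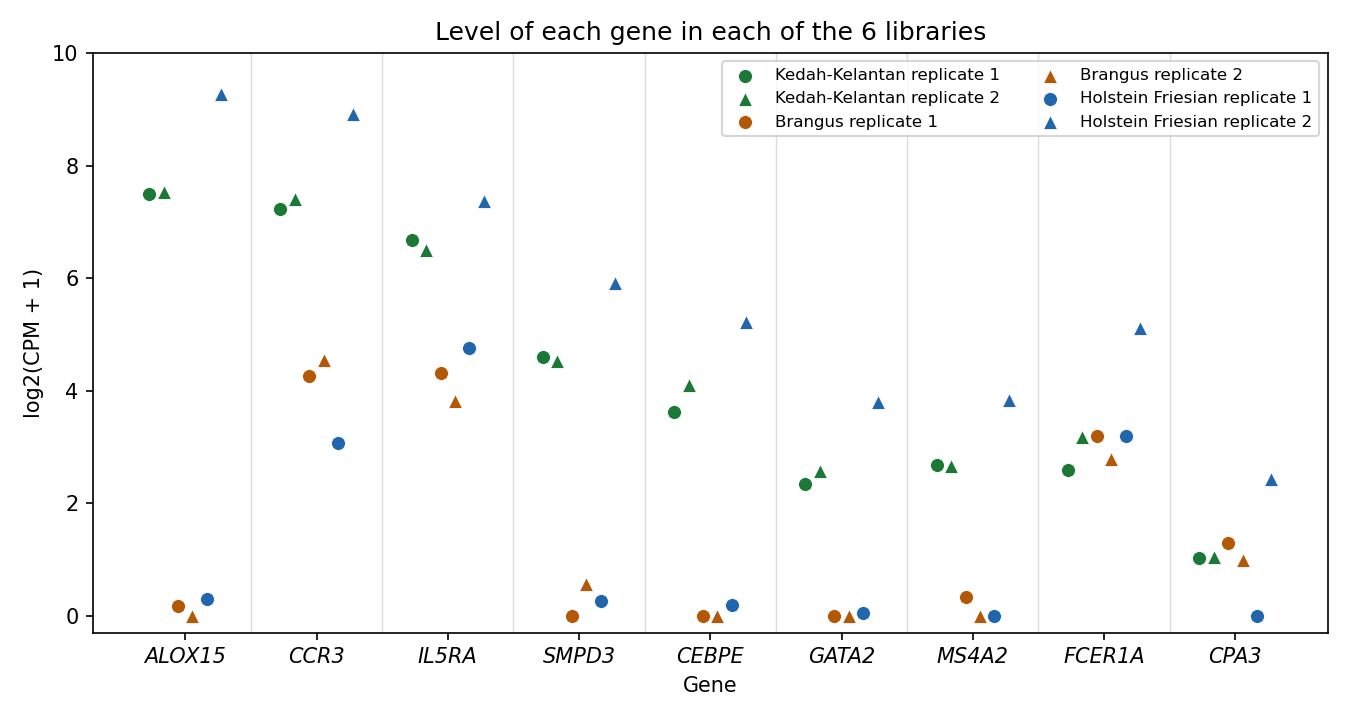
Level of each of the 9 genes in each of the 6 libraries, as log2(CPM + 1) on the vertical axis; colour marks the breed and shape the replicate. Holstein Friesian replicate 2 is the highest point for every gene, and for 7 genes the Kedah-Kelantan points lie above both Brangus points and above Holstein Friesian replicate 1.

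Of the 4 eosinophil genes, ALOX15 showed the widest split. ALOX15 (chromosome 19, 26697233 to 26705814, plus strand, as positioned in the deposited table) encodes arachidonate 15-lipoxygenase, an enzyme abundant in eosinophils that makes lipid mediators. It had counts of 5550 and 5639 (Kedah-Kelantan), 3 and 0 (Brangus) and 7 and 16142 (Holstein Friesian). The Kedah-Kelantan mean was 181 ± 3.29 CPM (SD, n = 2), the Brangus mean 0.0642 ± 0.0908 and the Holstein Friesian mean 307 ± 434. Kedah-Kelantan and Brangus did not overlap, while the Holstein Friesian libraries fell on either side of Kedah-Kelantan. Over summed counts, the Kedah-Kelantan level was 2812 times that of Brangus (95% exact interval 962 to 13638), and Holstein Friesian replicate 2 was at 2613 times replicate 1 (1268 to 6499). Such intervals, here and below, cover only the counting error of independent reads, and are too narrow where several reads stem from 1 molecule.

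CCR3 and IL5RA, the surface receptors of the eosinophil group, followed the same split without being absent anywhere. CCR3 (chromosome 22, 53132554 to 53166517, minus strand), the eotaxin receptor, had counts of 4651 and 5203 (Kedah-Kelantan), 423 and 522 (Brangus) and 221 and 12643 (Holstein Friesian). Its level was 159 ± 13.7, 20.3 ± 3.05 and 244 ± 335 CPM in that order of breeds. The Kedah-Kelantan level was 7.86 times the Brangus level (7.35 to 8.41). Unlike ALOX15, CCR3 was lowest in Holstein Friesian replicate 1, and replicate 2 was at 64.8 times that library (56.7 to 74.4).

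IL5RA (chromosome 22, 23200510 to 23243007, plus strand) encodes the chain of the interleukin 5 receptor that binds the cytokine. It had counts of 3129 and 2753 (Kedah-Kelantan), 441 and 305 (Brangus) and 774 and 4345 (Holstein Friesian). The levels were 95.1 ± 7.94, 15.99 ± 4.09 and 95.6 ± 98.4 CPM. Among the 7 split genes the gap was narrowest here: the lowest of the 3 high libraries was 3.44 times the highest of the other 3. The ratio of Holstein Friesian replicate 2 to replicate 1, at 6.36 (5.89 to 6.87), was also the smallest of the 7.

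SMPD3 (chromosome 18, 35721611 to 35764953, minus strand), whose product is a neutral sphingomyelinase that releases ceramide, had counts of 725 and 680 (Kedah-Kelantan), 0 and 11 (Brangus) and 6 and 1562 (Holstein Friesian). The means were 22.7 ± 0.871, 0.236 ± 0.334 and 29.8 ± 41.8 CPM. The Kedah-Kelantan level was 96.3 times the Brangus level (53.7 to 193). Like ALOX15, it was close to undetected in the 3 low libraries.

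Both transcription factor genes were undetected in Brangus. CEBPE (chromosome 10, 21743800 to 21745212, plus strand), a factor of terminal granulocyte differentiation, had counts of 353 and 497 (Kedah-Kelantan), 0 and 0 (Brangus) and 4 and 959 (Holstein Friesian). GATA2 (chromosome 22, 59347411 to 59355012, plus strand), a factor of blood progenitors and of the mast cell and basophil lines, had 127 and 152, 0 and 0, and 1 and 339. A count of 0 is read here as up to 3 counts per library, which is 0.128 to 0.129 CPM in Brangus. Against that floor, Kedah-Kelantan was at least 107-fold higher for CEBPE and at least 35.1-fold higher for GATA2. The floor covers counting error only and is low for Brangus: of genes with 8 to 15 counts in one library of a breed, 41.1% were at 0 in the other for Brangus, and 5.18% and 23.1% for the Kedah-Kelantan and Holstein Friesian pairs. Their Kedah-Kelantan levels were 13.8 ± 3.39 and 4.51 ± 0.603 CPM. Within Holstein Friesian, replicate 2 was at 272 times replicate 1 for CEBPE (106 to 999) and, from a single count in replicate 1, at 384 times for GATA2 (68.5 to 15215).

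The 3 basophil and mast cell genes did not behave alike. MS4A2 (chromosome 15, 83163650 to 83174951, plus strand), the beta chain of the immunoglobulin E receptor, had counts of 168 and 164 (Kedah-Kelantan), 6 and 0 (Brangus) and 0 and 349 (Holstein Friesian), and so shared the split of the eosinophil genes. Its Kedah-Kelantan level of 5.37 ± 0.0542 CPM was 41.7 times the Brangus level (19.0 to 115). Holstein Friesian replicate 2 was at least 132-fold higher than replicate 1, read at its floor.

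FCER1A (chromosome 3, 10419635 to 10425922, minus strand), the alpha chain that binds immunoglobulin E, had counts of 156 and 248 (Kedah-Kelantan), 189 and 137 (Brangus) and 242 and 884 (Holstein Friesian). The means were 6.54 ± 2.15, 6.99 ± 1.56 and 20.9 ± 18.0 CPM. Only Holstein Friesian replicate 2 was apart, and the other 5 libraries lay between 5.02 and 8.12 CPM. The Kedah-Kelantan to Brangus ratio was 0.934 (0.806 to 1.08), so a difference between those breeds was within counting error.

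CPA3 (chromosome 1, 119297395 to 119329541, minus strand), the carboxypeptidase of mast cell and basophil granules, was the lowest of the 9. It had counts of 32 and 33 (Kedah-Kelantan), 34 and 23 (Brangus) and 0 and 116 (Holstein Friesian). The Kedah-Kelantan to Brangus ratio was 0.86 (0.593 to 1.25). Holstein Friesian replicate 2 was at least 43.8-fold higher than replicate 1 at its floor. FCER1A and MS4A2 encode chains of the same receptor, yet in Brangus only FCER1A was within counting error of its Kedah-Kelantan level, and MS4A2 was at 6 and 0 counts.

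Within a breed, replicates lay close together in Kedah-Kelantan and Brangus and far apart in Holstein Friesian. On the log2(CPM + 1) scale, replicate 2 minus replicate 1 had a median over the 9 genes of 0.04 in Kedah-Kelantan (range -0.17 to 0.59), -0.17 in Brangus (-0.50 to 0.56) and 3.83 in Holstein Friesian (1.92 to 8.96). All 9 genes were more than 2-fold higher in Holstein Friesian replicate 2, as were 16% of the 12015 genes compared. None of the 9 differed more than 2-fold on this scale between the replicates of either other breed.

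**Figure D2:**
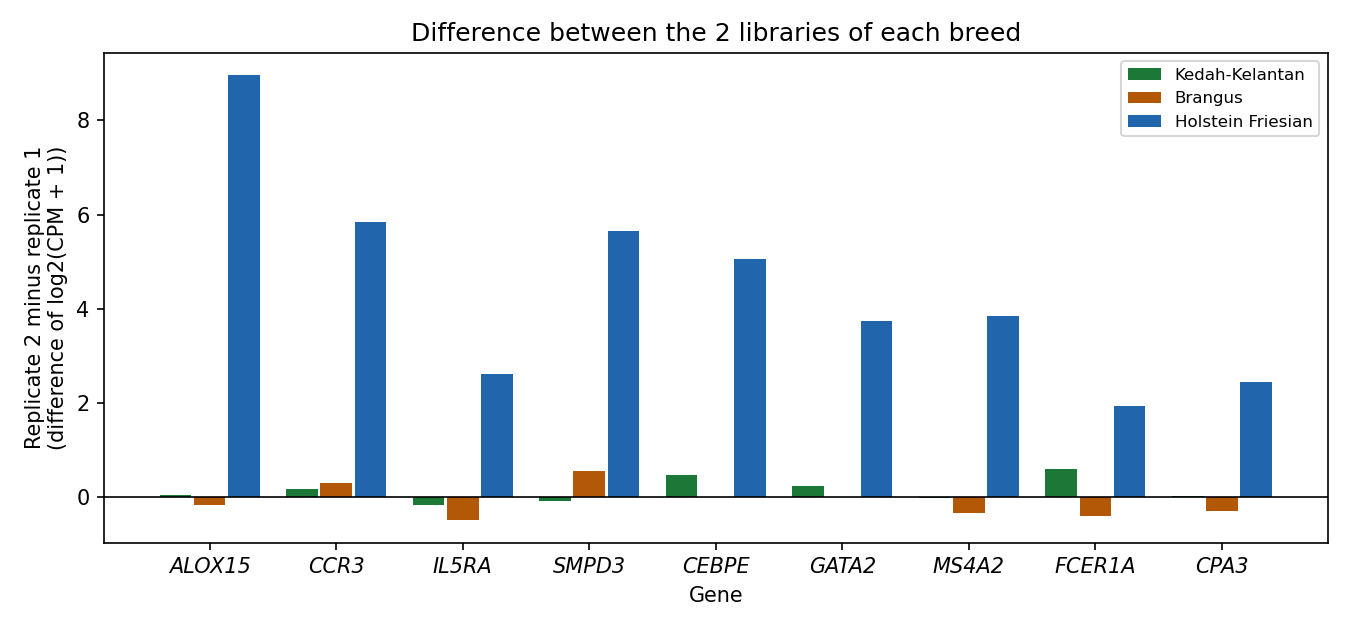
Difference between the 2 libraries of each breed for each gene, as replicate 2 minus replicate 1 of log2(CPM + 1); bars are coloured by breed and have no error, since each is 1 pair. The Holstein Friesian bars run from 1.92 for FCER1A to 8.96 for ALOX15, while the other breeds stay between -0.50 and 0.59.

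The genes did not scale by 1 factor between the high libraries. Holstein Friesian replicate 2 exceeded the mean of the Kedah-Kelantan libraries by 1.74 times for IL5RA, 2.47 for MS4A2, 2.61 for SMPD3, 2.65 for CEBPE, 2.86 for GATA2, 3.02 for CCR3 and 3.39 for ALOX15. Outside the 7 split genes it was 4.2 times for CPA3 and 5.14 times for FCER1A. The excess was thus smallest for the interleukin 5 receptor and largest for the immunoglobulin E receptor alpha chain. These ratios set 1 library against 2 and have no replicate check.

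Levels per gene length, from the deposited FPKM values, put the genes in a similar order in the high libraries and in another order in the low ones. In Kedah-Kelantan, ALOX15 (47.1 and 47.3 FPKM) and CCR3 (42.4 and 47.0) led, followed by CEBPE (14.9 and 20.8), IL5RA (11.7 and 10.2) and FCER1A (4.78 and 7.53). GATA2 (1.51 and 1.78), MS4A2 (1.36 and 1.31), SMPD3 (1.34 and 1.24) and CPA3 (0.70 and 0.71) were low, and MS4A2 and SMPD3 overlapped. Holstein Friesian replicate 2 had the same first 3, at 136 FPKM for ALOX15, 114.5 for CCR3 and 40.3 for CEBPE, with FCER1A at 26.9 then ahead of IL5RA at 16.1. In the low libraries FCER1A came first or shared the lead: 6.40 and 4.60 FPKM in Brangus, overlapping CCR3 at 4.26 and 5.22, and 7.22 in Holstein Friesian replicate 1, ahead of IL5RA at 2.81 and CCR3 at 1.96. The FPKM of SMPD3 rests on an implied length of 19366 bases, the longest of the 9, and that of CEBPE on 846 bases, the shortest.

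The libraries fell into 2 separate sets of 3 for 7 of the genes, so no correlation coefficient over the 6 libraries is given for pairs of these genes, and a relation within 3 libraries cannot be tested. The order of the libraries can be described. Below Holstein Friesian replicate 2, Kedah-Kelantan replicate 2 came next for ALOX15, CCR3, CEBPE and GATA2, and Kedah-Kelantan replicate 1 for IL5RA, SMPD3 and MS4A2. For CEBPE and GATA2 the full order of the libraries with counts was the same. FCER1A had Holstein Friesian replicate 1 in second place, where ALOX15, CCR3 and the other split genes were low, and CPA3 had Brangus replicate 1 there.

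Outside the 9, the genes most like them were found by their Pearson correlation, over the 6 libraries, with the mean of the members' standardised log2(CPM + 1). This is a measure of likeness with no test, and the 6 points share the split above: 388 of 12006 genes with a mean of at least 1 CPM, or 3.23%, reached 0.95. The 10 closest were SEPTIN5, ASB2, MPO, SULF2, UNC13D, HK2, NCSTN, ATP13A1, LOC781990 and DENND6A, with r between 0.994 and 0.999. LOC781990 is described as proteoglycan 3-like, and proteoglycan 3 is a relative of the eosinophil granule major basic protein. It had counts of 126 and 115 (Kedah-Kelantan), 0 and 0 (Brangus) and 0 and 320 (Holstein Friesian). MPO, myeloperoxidase of myeloid granules, had 107 and 131, 0 and 0, and 0 and 467. LOC788751, described as its paralogue eosinophil peroxidase, was at 0 in all 6 libraries, and how the counting split reads between such copies is not known. UNC13D, a granule exocytosis gene, and the metabolic gene HK2 had the same split at a smaller range, with HK2 at 1700 and 1611, 328 and 296, and 298 and 3263 counts.

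Kedah-Kelantan against Holstein Friesian asks how the heat-tolerant breed differs from the heat-vulnerable one. All 9 genes had a fitted log2 fold change below 0, and none passed. By edgeR's quasi-likelihood test, 0 of the 9 passed an adjusted p under 0.05 and 0 an unadjusted p under 0.05, against 0.00743% and 4.04% of all genes, and DESeq2 called 0 of the 9 and 0.747% of genes. Their median log2 fold change was -0.52, against -0.03 over all genes tested. FCER1A had the smallest p, at a log2 fold change of -1.67 (edgeR SE 0.71, adjusted p = 0.995), with unadjusted p = 0.0619 from the same edgeR fit across all genes. It moved to -2.36 when Holstein Friesian replicate 1 was left out and to -0.35 when replicate 2 was. It was the 1 gene of the 9 whose libraries did not overlap, with Kedah-Kelantan below, where 12.6% of all genes were in that position. ALOX15 had -0.76 (SE 2.25), CCR3 -0.61 (SE 1.51) and IL5RA -0.01 (SE 0.81), the last with means of 95.1 and 95.6 CPM.

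This comparison changed sign with the Holstein Friesian library used. Without replicate 1, 6 genes passed on the lower side in Kedah-Kelantan (ALOX15, CCR3, IL5RA, CEBPE, GATA2 and FCER1A), against 10.7% of all genes on that side. Without replicate 2, 8 genes passed on the higher side (all but FCER1A), against 6.56% of all genes. MS4A2 and CPA3 had 0 counts in the remaining Holstein Friesian library, so their fitted values are no bound. The median of the 9 was -1.51 and 6.75 in these 2 fits. CCR3, for instance, was -1.59 (edgeR adjusted p = 0.000538) without replicate 1 and 4.38 (adjusted p = 7.67e-05) without replicate 2. A fit with 1 Holstein Friesian library assumes that it varies as the other breeds do.

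**Figure D3:**
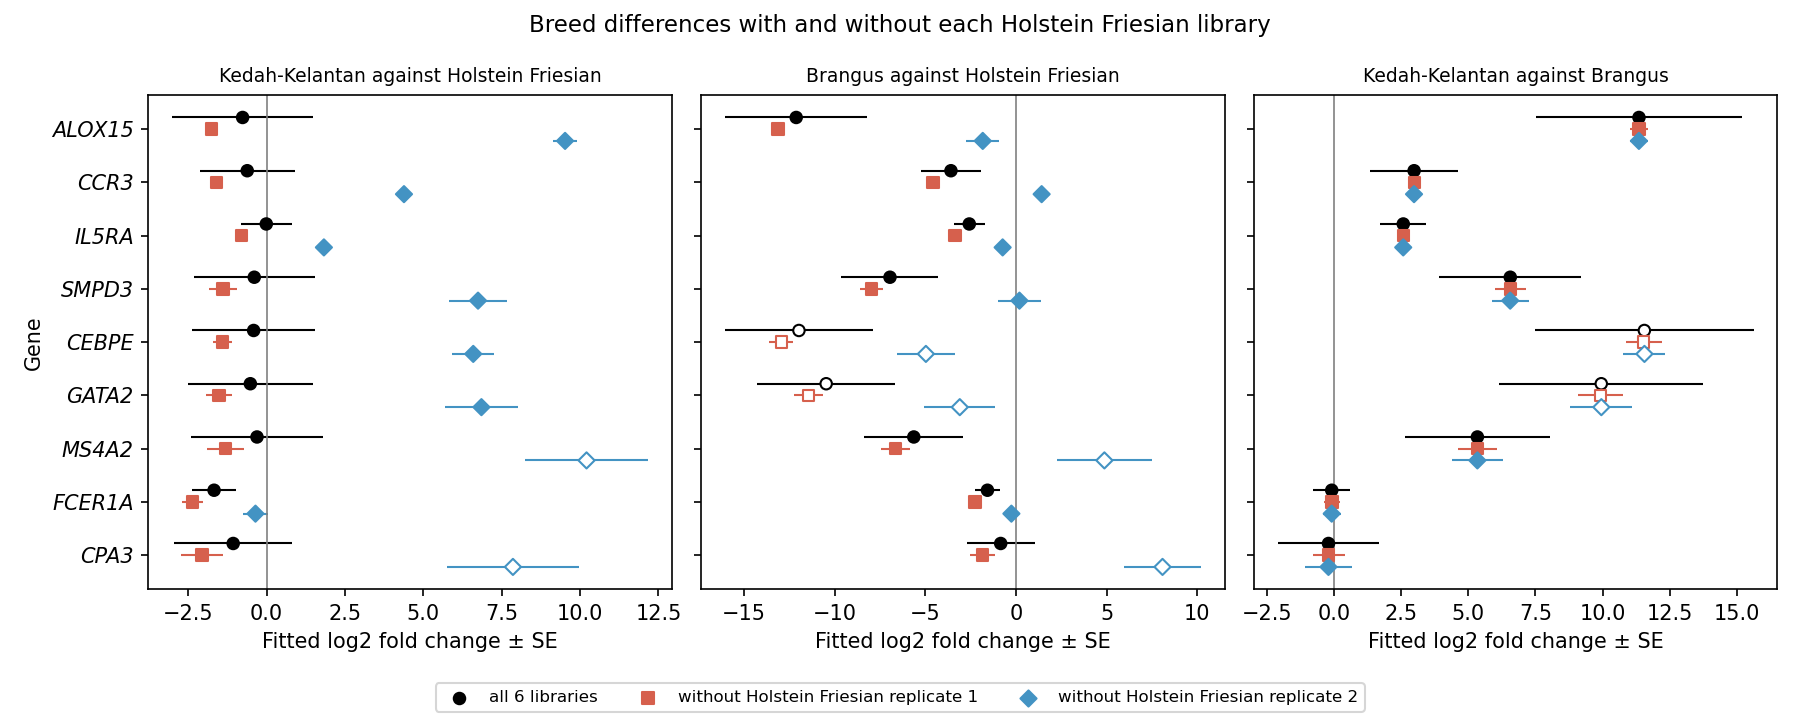
Fitted log2 fold change ± SE of each gene in the 3 breed comparisons, with all 6 libraries (circles) and without each Holstein Friesian library (squares and diamonds); the axes differ in range, and open symbols mark fits in which a breed had no count, where the value depends on the prior count. In Kedah-Kelantan against Holstein Friesian all genes but FCER1A move from below 0 without replicate 1 to above 0 without replicate 2 (CCR3 from -1.59 to 4.38), while in Kedah-Kelantan against Brangus the values stay in place and the SE shrinks.

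Brangus against Holstein Friesian sets the composite breed against the heat-vulnerable one. All 9 genes had a fitted value below 0 in Brangus (median -5.64, against -0.03 over all genes), and none passed. By edgeR 0 of 9 passed the adjusted p, against 0.00743% of all genes. At an unadjusted p under 0.05 there were 5 (ALOX15, IL5RA, SMPD3, CEBPE and GATA2), against 7.62%, and DESeq2 called ALOX15, CEBPE and GATA2 lower, where it called 1.06% of genes lower and 1.99% in either direction. For 5 genes (ALOX15, IL5RA, CEBPE, GATA2 and FCER1A) both Brangus libraries lay below both Holstein Friesian ones, as did 15.9% of all genes. IL5RA had the clearest counts among these, at a fitted -2.58 (SE 0.86, edgeR adjusted p = 0.645). FCER1A had -1.58 (SE 0.71, adjusted p = 0.659), and -2.27 and -0.26 without Holstein Friesian replicate 1 and replicate 2.

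The Brangus difference rested on Holstein Friesian replicate 2. Without replicate 1, 8 genes passed on the lower side (all but CPA3), against 16.8% of all genes. Without replicate 2 the median of the 9 was -0.26, no gene passed on the lower side, and CCR3 passed on the higher side at 1.41 (edgeR adjusted p = 0.00503), where 4.36% of all genes passed. Against Holstein Friesian replicate 1 alone, Brangus had 20.3 ± 3.05 CPM of CCR3 to 7.42, and 15.99 ± 4.09 CPM of IL5RA to 26.0.

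Kedah-Kelantan against Brangus, which asks how the heat-tolerant breed differs from the intermediate one, had close replicates on both sides. In 7 of the 9 genes both Kedah-Kelantan libraries lay above both Brangus libraries, against 33.5% of all genes, while FCER1A and CPA3 overlapped. None lay wholly below Brangus, where 30.7% of all genes did. The median fitted log2 fold change of the 9 was 5.33, or 5.13 with CEBPE and GATA2 set at their floors, against 0.02 over all genes. By edgeR over all 6 libraries 0 of the 9 passed the adjusted p, as for all genes (0%). At an unadjusted p under 0.05 there were 3 (ALOX15, IL5RA and CEBPE), against 11.6% of all genes, and DESeq2 called ALOX15, IL5RA, CEBPE and GATA2 higher, where it called 1.58% of genes higher and 3.68% in either direction. IL5RA was 2.57 higher on the log2 scale (SE 0.86, edgeR adjusted p = 0.388, from 0.000207 to 1 over its alternatives), and both its Kedah-Kelantan libraries were above both Brangus ones. CCR3 had 2.97 (SE 1.63, adjusted p = 0.524) and FCER1A -0.10 (SE 0.70, adjusted p = 0.968).

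The Holstein Friesian pair enters the shared estimate of spread, and its part in the lack of calls in that comparison was not tested. With only the 2 breeds compared in the fit, 7 of the 9 passed on the higher side (all but FCER1A and CPA3), against 9.09% of all genes. The same 7 passed without Holstein Friesian replicate 1, against 8.35% of all genes, and without replicate 2, against 7.92%. In the fit of the 2 breeds alone, CCR3 had a log2 fold change of 2.98 (edgeR adjusted p = 0.000106) and IL5RA 2.58 (adjusted p = 0.00033). Without any 1 Kedah-Kelantan or Brangus library no gene of the table passed, the 9 included. The test of any difference among the 3 breeds called 0 of the 9 (0% of all genes, and 8.23% at an unadjusted p under 0.05, where 0 of the 9 fell), and DESeq2 called 0 of the 9 and 3.81% of genes. The edgeR test called 8 of the 9 without Holstein Friesian replicate 1, against 34.1% of all genes, and 7 without replicate 2, against 19.9%.

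In summed level, neutrophil and monocyte markers, like these genes, were higher in Holstein Friesian replicate 2 than in replicate 1. The sums of the lymphocyte lists were lower or close, though single lymphocyte markers went either way. The 20 neutrophil markers summed to 2690 and 2895 CPM (Kedah-Kelantan), 3050 and 4676 (Brangus) and 1021 and 8554 (Holstein Friesian). Brangus was thus no lower than Kedah-Kelantan in summed neutrophil markers, where ALOX15, SMPD3, CEBPE, GATA2 and MS4A2 were at or close to 0. In Holstein Friesian, 17 of the 20 neutrophil markers were higher in replicate 2, and MMP8 was at 0 in every library and CAMP at 0 in all but Kedah-Kelantan replicate 1. The 15 monocyte markers summed to 2544 and 2680, 2101 and 1894, and 1313 and 9303 CPM, all 15 higher in Holstein Friesian replicate 2, and none was at 0 in any library. In 9 of the 15, against 2 of the 20 neutrophil markers (PADI4 and MGAM), Kedah-Kelantan and Holstein Friesian replicate 2 lay above the other 3 libraries. Of all genes tested, 18.3% did so, a share that the monocyte markers exceeded and the neutrophil markers did not. The part of these cells in the differences between the Holstein Friesian libraries was not tested.

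B and plasma cell markers went the other way, at 2682 and 2826 CPM (Kedah-Kelantan), 4299 and 3661 (Brangus) and 4233 and 355 (Holstein Friesian), with 0 of 14 higher in replicate 2. NK and cytotoxic lymphocyte markers summed to 2176 CPM in Holstein Friesian replicate 1 and 768.4 in replicate 2, with 6 of 16 higher in replicate 2. Gamma delta T cell markers summed to 334.2 and 113, with 2 of 8 higher in replicate 2. T cell markers were much closer in sum, between 3264 and 4154 CPM in all 6 libraries. Of these 15, 8 were higher in Holstein Friesian replicate 2. CD4 was at 116 and 793 CPM in the Holstein Friesian libraries, and CD8A, the other way, at 122 and 59.5. Platelet markers were at 689 and 716, 1781 and 1798, and 537 and 1950 CPM. F13A1, also a monocyte gene, made up 1392 CPM of the last value, and without it the sums were 310.4 and 357.8, 1297 and 1430, and 419.6 and 557.5. No gene of the 9 marker lists passed edgeR's test in any of the 3 comparisons. Of all genes, 0.00743% passed in each comparison with Holstein Friesian and 0% in Kedah-Kelantan against Brangus.

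**Figure D4:**
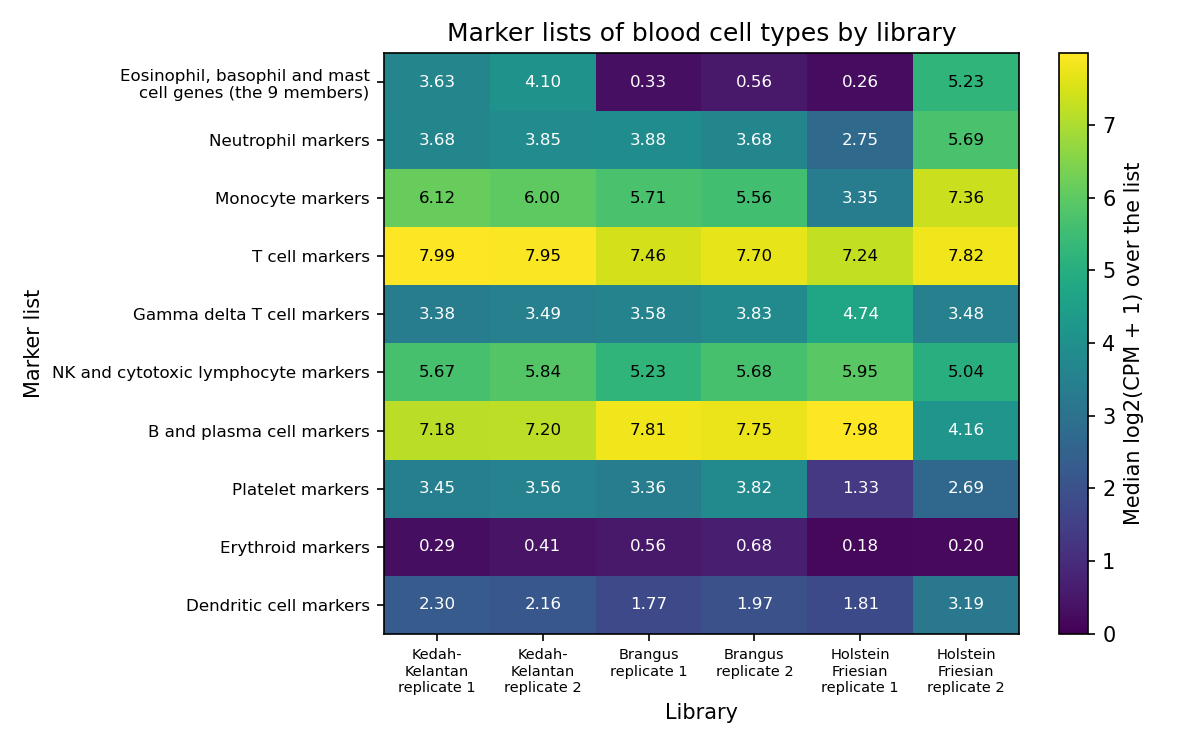
Median log2(CPM + 1) of the 9 eosinophil, basophil and mast cell genes and of 9 marker lists of other blood cells (rows) in each library (columns), with the value in each cell. The top row is below 0.6 in Brangus and in Holstein Friesian replicate 1, whereas the neutrophil row is between 3.68 and 3.88 in all Kedah-Kelantan and Brangus libraries.

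Genes linked to these cells or to the functions of the 9 members were read from 7 lists, and many are not particular to these cells. Of the 108 tested, edgeR called 0 in any breed comparison. Over all genes it called 0.00743% in each comparison with Holstein Friesian and 0% in Kedah-Kelantan against Brangus. Among eosinophil granule and surface genes, 16 of 25 symbols were in the table and 15 were tested. Of the 15, 10 showed the same split, with Kedah-Kelantan and Holstein Friesian replicate 2 above the rest. So did 9 of the 15 monocyte markers and 18.3% of all genes, so the split was not particular to this list. The list's median log2 fold change was -0.26 for Kedah-Kelantan against Holstein Friesian, -1.67 for Brangus against Holstein Friesian and 0.85 for Kedah-Kelantan against Brangus. HRH4, a histamine receptor of eosinophils and mast cells, had counts of 2136 and 2367 (Kedah-Kelantan), 58 and 158 (Brangus) and 124 and 3853 (Holstein Friesian). CD244, a receptor shared with NK cells, ranged only from 91.4 to 261 CPM, and P2RY2, a nucleotide receptor, had 163 counts in Holstein Friesian replicate 2 and at most 33 elsewhere. The granule gene RNASE2 had 9 counts in Holstein Friesian replicate 2, 3 in Kedah-Kelantan replicate 1 and 0 elsewhere.

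Among 22 further basophil and mast cell genes, 15 were in the table and 11 were tested, with medians of -0.14, -0.997 and 0.63 in the same order of comparisons, and 6 of the 11 shared the split, against 18.3% of all genes. GCSAML had counts of 445 and 506 (Kedah-Kelantan), 27 and 40 (Brangus) and 12 and 1483 (Holstein Friesian), and the histamine receptor gene HRH2 was at 26.9 and 24.9, 13.4 and 19.9, and 14.3 and 102 CPM. IL18R1, an interleukin 18 receptor chain, had its highest levels in Holstein Friesian instead, at 75.0 and 49.8 CPM. HDC, the histamine-forming enzyme, had 6 counts in Kedah-Kelantan replicate 2 and 0 elsewhere. The tryptase gene TPSB2 had 3 counts in that library and 0 elsewhere.

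The cytokine and eotaxin genes of these receptors were hardly detected in blood, whereas CCL5, another CCR3 ligand, was detected in every library. IL5, IL3, CSF2 and the eotaxin gene CCL11 had 0 counts in all 6 libraries, which by counting error allows up to 0.0965 to 0.129 CPM depending on the library. CCL24 and CCL26, the other eotaxins, had 7 counts each over all libraries, and IL4 had 11. On the receptor side, CSF2RB, the shared beta chain that pairs with IL5RA, was at 233 and 224 CPM (Kedah-Kelantan), 163 and 210 (Brangus) and 58.2 and 521 (Holstein Friesian), a far smaller breed difference than that of IL5RA. By the smallest p, the list's named genes were CCL5, which cytotoxic cells also make, IL9R and STAT6. CCL5 was fitted at 1.90 between Kedah-Kelantan and Brangus (SE 0.26, edgeR adjusted p = 0.337). The list's medians over 15 tested genes were -0.20, -0.43 and 0.28, and 9 of the 15 shared the split, against 18.3% of all genes.

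Of the other chain and signalling genes of the immunoglobulin E receptor, PLCG1, SOS1, LCP2 and INPP5D had Kedah-Kelantan and Holstein Friesian replicate 2 above the rest. All 4 shared this split with MS4A2, and the gamma chain gene did not have it. INPP5D also had the order of MS4A2 over the libraries where MS4A2 had counts, while PLCG1, SOS1 and LCP2 did not. For SOS1 the gap was narrow, at 61.5 CPM in Kedah-Kelantan replicate 2 and 59.9 in Holstein Friesian replicate 1. FCER1G, the gamma chain shared with other Fc receptors, was at 102 and 140 CPM (Kedah-Kelantan), 170 and 188 (Brangus) and 34.0 and 420.2 (Holstein Friesian). Over the 19 genes of that list, all tested, the medians were -0.08, -0.28 and -0.05. The 4 of 19 with the split are a share close to the 18.3% of all genes. FCER2, the low-affinity receptor of B cells, had the smallest p, followed by PLCG1 and BTK. Kedah-Kelantan FCER2 was fitted at -0.90 (SE 0.20, edgeR adjusted p = 0.995) relative to Holstein Friesian, and at -0.82 (SE 0.20, edgeR adjusted p = 0.353) relative to Brangus.

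Beside ALOX15, another lipoxygenase gene had the same profile. ALOX5, the first enzyme of leukotriene synthesis, had counts of 2075 and 1988 (Kedah-Kelantan), 5 and 0 (Brangus) and 19 and 9019 (Holstein Friesian). Its partner ALOX5AP was at 27.4 and 35.4, 15.8 and 15.9, and 2.48 and 103 CPM, so Brangus held the partner with hardly any ALOX5. LTC4S, which makes the cysteinyl leukotriene C4, was instead highest in Brangus, at 1.06 and 1.56, 11.2 and 8.72, and 1.74 and 3.16 CPM (log2 fold change -2.92 for Kedah-Kelantan against Brangus, SE 0.51, edgeR adjusted p = 0.351). CYSLTR1, a leukotriene receptor, ranked between LTC4S and ALOX5 by p. The lipoxygenase genes ALOX12B, ALOX12E, ALOXE3 and ALOX15B had 0 counts in all 6 libraries. Over 15 tested genes of the list the medians were -0.75, -1.30 and 0.30, and 6 of the 15 shared the split, against 18.3% of all genes.

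For SMPD3, 13 other genes of sphingomyelin and ceramide metabolism were tested, with medians of -0.22, -0.14 and 0.04, and the 3 with the smallest p were SPTLC2, SMPD1 and SMPDL3A. The split was shared by 5 of the 13, against 18.3% of all genes. SMPD1, the acid sphingomyelinase, had counts of 568 and 630 (Kedah-Kelantan), 543 and 539 (Brangus) and 760 and 717 (Holstein Friesian), without the split of SMPD3. Among 20 tested transcription factors of granulocyte and related lines, the medians were -0.24, -0.46 and 0.27, and 8 shared the split, against 18.3% of all genes. ZFPM1, the GATA cofactor FOG1, had counts of 396 and 454 (Kedah-Kelantan), 83 and 70 (Brangus) and 283 and 352 (Holstein Friesian) (log2 fold change 2.07 for Kedah-Kelantan against Brangus, SE 0.32, edgeR adjusted p = 0.351). It was followed by ID1 and IRF8. GATA1, which was chosen for its kinship to GATA2 after its values were seen, had 495 and 559, 130 and 166, and 21 and 1050 counts.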

How the data were processed

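All tests used raw read counts per gene, as deposited by the authors, and the FPKM values they deposited served only to compare levels between genes. Per the submitters' processing notes, the build was ARS-UCD1.2 and the tools were HISAT2 2.2.1, featureCounts 2.0.1, DESeq2 1.38.0, Trimmomatic 0.39 and FastQC 0.11.9. Settings and strandedness are not stated, so reads of overlapping antisense genes could not be separated. Gene positions and names of LOC genes are those of the deposited tables and are not tied to a build.

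Breed labels gave the groups. Counts of all 6 libraries were fitted in R 4.3.3 with edgeR 4.0.16 (TMM scaling, filterByExpr, robust quasi-likelihood, breed as the one term, 3 residual degrees of freedom), after tests on simulated data. Of 21698 genes, 13455 passed the filter. For several of the 9 members the libraries that met it were those of Kedah-Kelantan and Holstein Friesian replicate 2, so passing it supports nothing. Benjamini-Hochberg adjustment ran over every gene tested, with a threshold of 0.05. Fold changes are on the log2 scale, first-named breed over second, and their SE comes from the F statistic. Ratios of summed counts have exact binomial 95% intervals. In ratios, counts of 0 were set at 3 per library only where every library of the denominator was at 0. Correlations between pairs of members, part of the design, were not computed for the reason the results give. DESeq2 1.42.0 was an alternative.

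The members, lists and tests were chosen with earlier results of these data known. Named were all 9 members, the 3 genes of each related list with the smallest p for any breed difference, and the 10 genes most like the members. RNASE2, HDC, TPSB2, the cytokine and eotaxin genes, CSF2RB, FCER1G, SOS1, LCP2, INPP5D, F13A1, HBB, CD4, CD8A, ALOX5AP, the lipoxygenases at 0 counts, LOC788751 and GATA1 fall outside this rule and were chosen after their values were seen.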

Additional observations from a re-analysis of the deposited data

How the results depend on the processing

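Of 371 values of single members recomputed under the alternatives, 302 kept their direction and side of the threshold, 42 kept direction and became calls, and 27 changed sign. DESeq2 called 3 members in Brangus against Holstein Friesian and 4 in Kedah-Kelantan against Brangus, with 108 genes in Kedah-Kelantan against Holstein Friesian and 282 and 532 in the other pairs, and 527 for any breed difference. With only the 2 breeds compared, 7 members and 2537 genes passed in Kedah-Kelantan against Brangus, and 0 genes passed in either comparison with Holstein Friesian. The 1 gene of each of those comparisons dropped to 0 with a mean count of at least 50 and with the replicate block, and in Brangus against Holstein Friesian also with RLE size factors. Without a low-count filter 1 gene passed for any breed difference. With library totals only, the sign turned for IL5RA in Kedah-Kelantan against Holstein Friesian (0.21) and for FCER1A (0.16) and CPA3 (0.043) in Kedah-Kelantan against Brangus. The median Holstein Friesian replicate difference rose to 6.60 with a pseudocount of 0.1. Causes of these shifts were not tested, and some alternatives also hold fewer libraries or genes.

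Between breeds, deviations of same-numbered libraries correlated at 0.03, -0.00 and 0.12 across 12015 genes. With a single pair of replicates per breed, these values cannot show whether same-numbered libraries were collected or processed together. With the replicate block, the median of Kedah-Kelantan against Holstein Friesian was 0.35, with ALOX15 at 1.13, CCR3 at 0.35, IL5RA at 0.24, SMPD3 at 2.51, CEBPE at 2.00, GATA2 at 1.75 and MS4A2 at 0.32, and CPA3 in Brangus against Holstein Friesian was 0.0077. No member was called with it.

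Leaving out each library in turn, members called ranged from 0 to 8 in Kedah-Kelantan against Holstein Friesian, 0 to 8 in Brangus against Holstein Friesian, 0 to 7 in Kedah-Kelantan against Brangus and 0 to 8 for any breed difference. Genes called ranged from 0 to 2464, 0 to 4395, 0 to 2458 and 0 to 4783. The median of the members ranged from -1.51 to 6.75, from -6.64 to -0.26 and from 4.36 to 5.57 in the 3 comparisons. In Kedah-Kelantan against Holstein Friesian the range was -1.76 to 9.52 for ALOX15, -1.59 to 4.38 for CCR3, -0.80 to 1.83 for IL5RA, -1.38 to 6.75 for SMPD3, -1.40 to 6.59 for CEBPE, -1.51 to 6.85 for GATA2, -1.30 to 10.21 for MS4A2, -2.36 to -0.35 for FCER1A and -2.06 to 7.86 for CPA3. In Brangus against Holstein Friesian it was -4.57 to 1.41 for CCR3, -12.74 to 0.19 for SMPD3, -10.57 to 4.87 for MS4A2, -2.27 to -0.26 for FCER1A and -1.85 to 8.08 for CPA3. In Kedah-Kelantan against Brangus it was -0.47 to 0.21 for FCER1A and -0.46 to 0.081 for CPA3. Fitted values against a breed at 0 counts depend on the prior count and are no bound. The alternatives planned for correlations between members were not run, since no such correlation is given. Counts of 0 to 11 in the low libraries limit ALOX15, SMPD3, CEBPE, GATA2 and MS4A2 there to detection or not.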

Other observations

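Other genes of eosinophil and mast cell granules appear in the table under LOC symbols, and were chosen after their values were seen. LOC617374, described as proteoglycan 3, had counts of 58 and 50 in the Kedah-Kelantan libraries, 0 in both Brangus libraries, and 0 and 159 in the Holstein Friesian ones. LOC505326, described as mast cell protease 1A, had 54 and 48, 0 and 0, and 2 and 251. LOC100139881, described as mast cell protease 2, had 49 and 52, 0 and 22, and 2 and 671. For these 3 genes Holstein Friesian replicate 2 was the highest library and Kedah-Kelantan came next, as for ALOX15. LOC112448555, described as eosinophil cationic protein, had 1 count in Holstein Friesian replicate 2 and 0 elsewhere. The copies within each of these families are close in sequence, so counts of a single copy are uncertain.

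MCEMP1, a mast cell expressed membrane protein also present in monocytes, had 788 and 776, 360 and 432, and 227 and 2699 counts. MILR1, an inhibitory receptor first described in mast cells, had 2440 and 2529, 2275 and 1967, and 2649 and 3479, a far narrower range. KIT, the stem cell factor receptor of mast cells and progenitors, was lowest in Holstein Friesian replicate 2, at 4.52 CPM, where CPA3 and MS4A2 were highest, and reached 14.3 CPM in replicate 1.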
